A study of Mus musculus with 6 samples.

Results

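The genes described here are 10 enzymes and regulators of de novo lipogenesis, the route by which the liver builds fatty acids from carbohydrate carbon. They were chosen by symbol from what is known of the pathway, at a time when earlier results of these data were known. They are the transcription factors *Srebf1* and *Mlxipl*, the regulatory protein gene *Thrsp*, the suppliers of acetyl-CoA and NADPH *Acly* and *Me1*, the carboxylases *Acaca* and *Acacb*, the synthase *Fasn*, the elongase *Elovl6* and the desaturase *Scd1*. All 10 were among the 16123 genes of the deposited table, and all 10 had a mean value of at least 10 normalized reads, as did 11367 genes in all. Liver RNA was sequenced from male mice, 2 months old, that received a purified chow diet for 4 weeks and were fasted for 16 h. The controls (WT) were C57BL/6Rj mice born of the same heterozygous crosses, and the *Txndc5*-deficient mice (KO) were C57BL/6JRj-Txndc5<em2Mdnp>/Ciba, a line that carries a germline deletion of exon 3 in every tissue and that descends from a single edited founder. Each of the 6 libraries, 3 of WT (pools 1, 2 and 5) and 3 of KO (pools 2, 3 and 4), was made from the RNA of 3 mice pooled, so the individual animals cannot be seen.

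In lipogenesis, ATP citrate lyase turns citrate into cytosolic acetyl-CoA, acetyl-CoA carboxylase makes malonyl-CoA from it, and fatty acid synthase joins these units into palmitate with NADPH as reductant. Elongation and a double bond then give oleate, which can be esterified to triglyceride. The genes are switched on after a meal by SREBP-1c, which answers to insulin and to the nuclear receptor LXR, and by ChREBP, which answers to sugar metabolites. A fast lowers both signals, so these values describe the pathway in a liver where it normally runs low.

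The deposited table gives 1 value per gene and genotype, in reads divided by size factors (normalized reads), with no value per library. The members therefore have no measured replicate error and no test, and their differences are given as values. A ratio here is the log2 of KO over WT after 1 was added to each value, so a positive ratio is a higher value in KO. As a yardstick, each ratio was set beside those of the genes whose mean value lay within 2-fold of the gene's own, called genes of like level. These values carry a shrinkage of ratios toward 0. It was measured in 340 genes with 200 to 400 normalized reads in all, whose ratio from recovered reads was past 0.5 or -0.5. There the deposited ratio was a median 0.78 times the ratio from the reads. Choosing genes by the ratio from the reads can lower this factor, and at the members' level it was not measured. Fewer cells of a type and less RNA per cell cannot be told apart in such data.

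The clean reads per library ranged from 44040160 to 46050030, and 91.63% to 93.66% of them were mapped. *Txndc5* itself was at 2697 normalized reads in WT and 90.8 in KO, 29.7-fold lower, as the genotype labels say. All 7 hepatocyte markers looked at were in the table. None was past a ratio of 0.5 or -0.5, where 2.38% and 7.61% of all genes with a mean of at least 10 lay. Of these markers 2 had a ratio above 0, and their median ratio was -0.14, against -0.05 over all those genes. For weak genes the whole reads of each library were recovered from the mean values. These libraries are named by genotype and size factor, since they carry no pool number: KO 1.31, KO 1.04 and KO 0.886, and WT 1.22, WT 0.879 and WT 0.818. The libraries with the largest size factor of each genotype, KO 1.31 and WT 1.22, departed from the other libraries of their genotype together (r = 0.709 across 1352 genes, which share the libraries and are not independent replicates). Library KO 1.31 also held the most reads of adipocyte genes: 61 of *Adipoq*, which encodes the fat hormone adiponectin, against 4 and 1 in the other KO libraries and 0, 2 and 0 in WT. Pancreatic acinar genes were highest in another KO library. The summed normalized reads of 6 of them were 99.4 in KO 0.886, against 13.0 in KO 1.31 and 16.4 in KO 1.04. WT 1.22, WT 0.879 and WT 0.818 had 16.3, 15.9 and 33.0. The part of such RNA in the members' values was not tested. None of the 10 lipogenic genes was weak enough for its reads to be recovered, so none of their values can be given without a library.

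Of the 10 genes, 7 had a higher value in KO than in WT and 3 a lower one, and the median ratio was 0.26. The lower value of *Acacb* was a ratio of -0.01, which became 0.04 after centring on the median of all genes and 0.08 with both genotypes scaled to equal sums, so that 8 ratios were then above 0 and 2 below it (*Mlxipl* and *Elovl6*). Over all 11367 genes with a mean of at least 10, the median ratio was -0.05 and 42.3% of the ratios were above 0. One gene, *Fasn*, was past a ratio of 0.5, where 2.38% of all genes lay, and 0 were past -0.5, where 7.61% lay. The other 9 stood between the 2.5 and 97.5 percentiles of their genes of like level. When both genotypes were scaled to equal sums of values, the median over all genes moved to 0.05, *Srebf1* (0.50) and *Thrsp* (0.54) joined *Fasn* (0.85) past 0.5, and the share of genes past 0.5 in either direction that were higher in KO went from 23.8% to 45.5%.

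**Figure D1:**
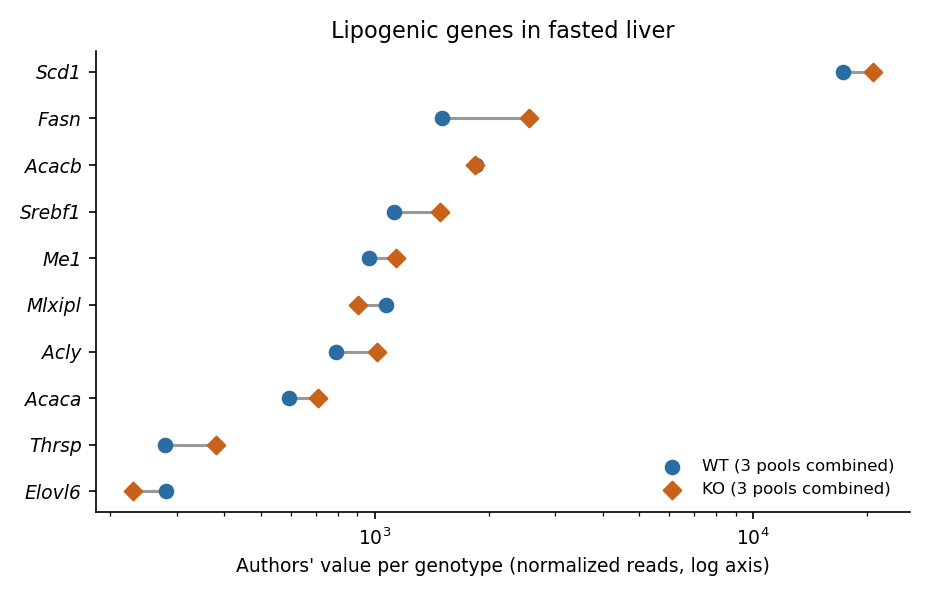
The value of each of the 10 genes in WT (circles) and KO (diamonds), in normalized reads on a log axis, each combining 3 pools of a genotype and without an error bar because the table has no value per library. *Fasn* has the widest gap, from 1509 to 2555, and *Acacb* the narrowest, from 1851 to 1839.

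**Figure D2:**
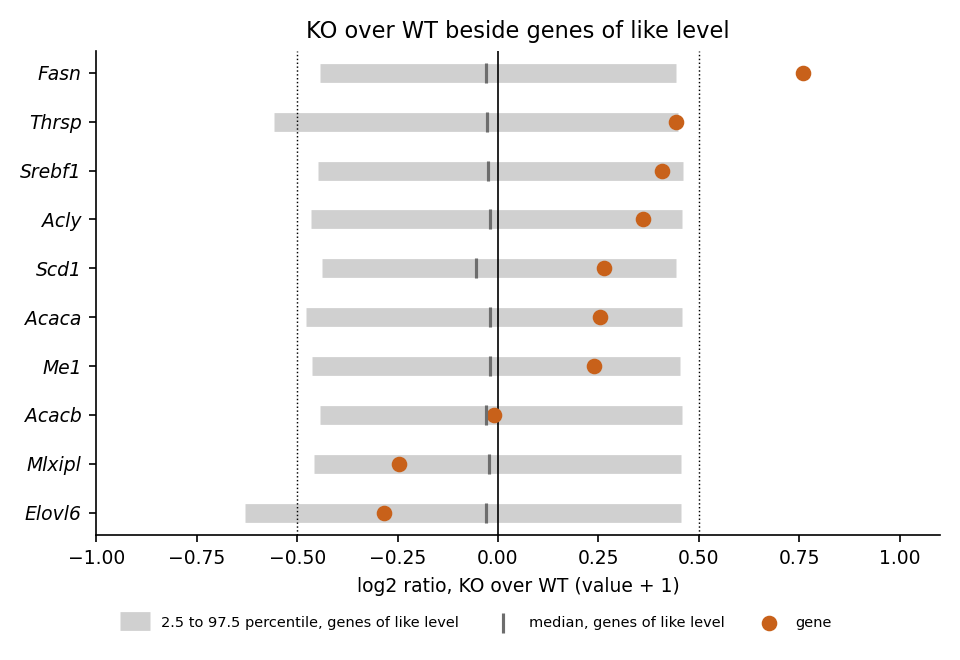
The log2 ratio of KO over WT of each gene (points), with the 2.5 to 97.5 percentile range (grey bars) and the median (ticks) of the genes of like level, and dotted lines at -0.5 and 0.5. *Fasn*, at 0.76, lies to the right of its bar, which ends at 0.44, and the other 9 points lie on theirs.

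The regulators split. *Srebf1* (NCBI Gene 20787) encodes SREBP-1, the transcription factor that drives the whole set of lipogenic enzymes in the liver, and its value was 1124 in WT and 1490 in KO, a ratio of 0.41. Of its 1701 genes of like level, 3.35% had a higher ratio. In the GENCODE M21 annotation of GRCm38 the gene spans chr11:60199089-60222581 on the minus strand, and its longest coding transcript has 19 exons. The table does not separate the transcripts of SREBP-1a and SREBP-1c, which share most of their exons, so the value covers both.

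*Mlxipl* (NCBI Gene 58805), the gene of ChREBP, went the other way, from 1072 in WT to 902 in KO, a ratio of -0.25 with 88.4% of 2004 genes of like level above it. ChREBP binds DNA with its partner Mlx when sugar phosphates accumulate. The gene spans chr5:135089890-135138382 on the plus strand, and its longest coding transcript has 17 exons. *Thrsp* (NCBI Gene 21835) encodes the small nuclear protein Spot 14, a target of thyroid hormone and of carbohydrate feeding, and had 279 in WT and 380 in KO, a ratio of 0.44 that 2.64% of 3295 genes of like level exceeded. Its 2 exons lie within chr7:97412938-97417730 on the minus strand. Among the regulators, *Srebf1* and *Thrsp* thus had their higher value in KO and *Mlxipl* in WT.

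Promoter windows of the RefSeq table on GRCm38.p6, 300 bases each around an annotated start, were found for 9 of the 10 genes, the exception being *Scd1*, and were searched on both strands for 6 motifs. The box CCAAT, bound by NF-Y, was in a window of 7 of the 9 genes (*Srebf1*, *Mlxipl*, *Thrsp*, *Acly*, *Me1*, *Acacb* and *Fasn*), as in 41.1% of all 27025 genes, and in 8 of their 13 windows, against 37.4% of all 32851 windows. The box GGGCGG, bound by Sp1, was in a window of 4 genes (*Srebf1*, *Mlxipl*, *Acly* and *Me1*), against 38.2% of all genes, and in 5 of the 13 windows, against 35.7%. Both factors are known partners of SREBP-1. A sterol response element, TCACNCCAC, was found in 1 of the genes, *Mlxipl*, against 1.44% of all genes, and the E-box CACGTG in *Mlxipl* alone, against 8.09%. They lie in windows of different starts of *Mlxipl*. The E-box is in chr5:135089640-135089939, from which the stretch printed below is taken, and the sterol response element is in chr5:135106641-135106940. The carbohydrate response element, written as 2 boxes CANGTG with 5 bases between them and thus overlapping the E-box where N is C, and the LXR element, 2 boxes AGGTCA with 4 bases between them, were found in 0 of the 9 genes, against 0.0999% and 0.0148% of all genes. A match is only a match of letters in a short window.

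The 200 bases before the start are printed for *Fasn*, which had the largest ratio, for *Acly*, a further enzyme with a higher value in KO, and for *Mlxipl*, which had a lower one. They run 5′ to 3′ on the strand of the gene, with matches to the searched boxes on either strand in capitals. They cover chr11:120824548-120824747 (minus strand), chr11:100528001-100528200 (minus strand) and chr5:135089690-135089889 (plus strand), all of GRCm38.p6.
Fasn: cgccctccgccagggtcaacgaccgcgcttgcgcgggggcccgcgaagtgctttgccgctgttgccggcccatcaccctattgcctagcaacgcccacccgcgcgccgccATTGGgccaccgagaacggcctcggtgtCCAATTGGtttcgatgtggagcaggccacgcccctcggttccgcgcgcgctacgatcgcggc
Acly: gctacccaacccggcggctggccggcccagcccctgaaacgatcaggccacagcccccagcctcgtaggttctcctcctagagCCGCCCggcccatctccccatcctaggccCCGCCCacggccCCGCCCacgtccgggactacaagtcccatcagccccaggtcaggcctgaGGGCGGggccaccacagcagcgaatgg
Mlxipl: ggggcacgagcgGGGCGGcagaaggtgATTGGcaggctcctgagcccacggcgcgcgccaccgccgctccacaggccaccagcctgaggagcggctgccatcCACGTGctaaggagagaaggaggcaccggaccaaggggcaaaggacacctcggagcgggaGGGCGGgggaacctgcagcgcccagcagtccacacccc
Positions are those of the first base of a box, with the base before the start as -1. In *Fasn*, CCAAT is at -62 and, on the opposite strand, where it reads ATTGG, at -90 and -59, so that the last pair of boxes share letters as CCAATTGG. In *Acly* the capitals are Sp1 boxes at -117, -88, -76 and -27. In *Mlxipl*, Sp1 boxes lie at -188 and -38, an NF-Y box at -173 and the E-box at -98. The window of *Acly* also holds CCAAT at 38 bases after the start, outside the printed stretch. The windows of *Fasn*, *Acly* and *Mlxipl* thus each hold an NF-Y box, as do those of 41.1% of all genes. Of the 9 genes with windows only *Mlxipl* has the E-box, a box that 8.09% of all genes have. From 1 gene no link between the box and the direction of a ratio can be drawn.

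The suppliers of carbon and reductant both had higher values in KO. *Acly* (NCBI Gene 104112), ATP citrate lyase, was at 791 in WT and 1016 in KO, a ratio of 0.36, and 4.69% of 2133 genes of like level had a higher one. It spans chr11:100476353-100528000 on the minus strand and has 29 exons in its longest coding transcript. *Me1* (NCBI Gene 17436), cytosolic malic enzyme, which yields NADPH, was at 965 in WT and 1140 in KO, a ratio of 0.24 with 11.3% of 1943 genes of like level above it. It spans chr9:86581371-86695953 on the minus strand, with 14 exons. Both ratios stood inside the range of their genes of like level.

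The carboxylases differed from each other. *Acaca* (NCBI Gene 107476) encodes the cytosolic acetyl-CoA carboxylase that feeds fatty acid synthesis, and its value was 594 in WT and 709 in KO, a ratio of 0.25 exceeded by 11.1% of 2535 genes of like level. *Acacb* (NCBI Gene 100705) encodes the mitochondrial isoform, whose malonyl-CoA restrains fatty acid entry into mitochondria, and had 1851 in WT and 1839 in KO, a ratio of -0.01 whose sign turns with the scaling. *Acaca* spans chr11:84129672-84401651 with 56 exons and *Acacb* chr5:114146535-114250761 with 53, both on the plus strand. Per kilobase of the longest coding transcript, *Acacb* was 3.37 times *Acaca* in WT and 2.81 times in KO.

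*Fasn* (NCBI Gene 14104), the fatty acid synthase, had the largest ratio of the 10: 1509 in WT and 2555 in KO, a ratio of 0.76 or 1.69-fold. Of its 1220 genes of like level, whose 2.5 to 97.5 percentiles were -0.44 and 0.44, 0.328% had a higher ratio, and over all 11367 genes *Fasn* ranked 63 from the top. It spans chr11:120805846-120824547 on the minus strand, and its longest coding transcript of 10050 bases has 43 exons. The ratio was past 0.5 with pseudocounts of 0.1 and 10, after centring on the median of all genes (0.81) and after scaling to equal sums (0.85). No spread between pools of KO or WT is known for it.

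Adipocytes also express *Fasn* and most of the other members, so the fat-cell markers stand beside these values. Of 7 adipocyte markers 6 were in the table, and the reads of 5 (*Adipoq*, *Fabp4*, *Plin1*, *Cfd* and *Retn*) were recovered in every library. Their summed normalized reads were 372 in KO 1.31, 75.3 in KO 1.04 and 21.5 in KO 0.886, against 19.6 in WT 1.22, 121 in WT 0.879 and 30.6 in WT 0.818. The genotypes overlapped: 1 KO library stood above all others, and another KO library stood below 2 of the WT libraries. *Adipoq*, *Plin1* and *Retn* were at 0 reads in WT 1.22 and WT 0.818, and *Retn* was at 0 in KO 0.886. The KO value of *Fasn* was 1046 normalized reads above the WT value. That difference is on the shrunken scale of the deposited values and the marker sums come from recovered reads. They cannot be set against each other directly. The part of fat-cell RNA in the values of *Fasn* and the other members was not tested.

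**Figure D3:**
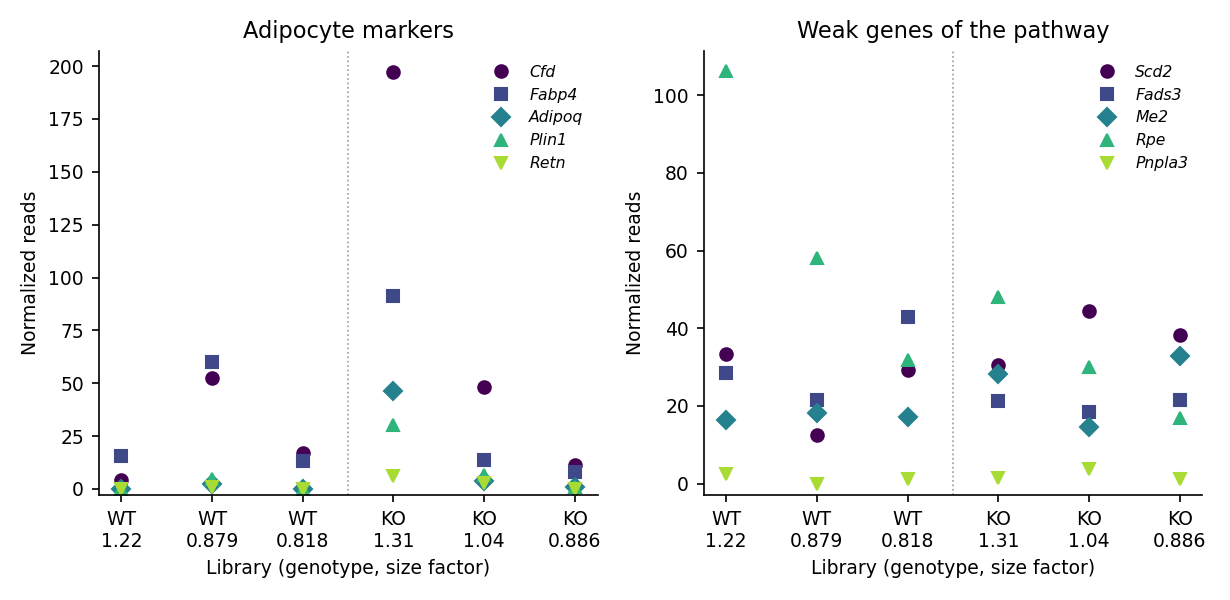
Normalized reads recovered in each of the 6 libraries, named by genotype and size factor, for 5 adipocyte markers (left) and 5 weak genes of the lipid pathways (right); each point is 1 library. *Cfd* reaches 197 in KO 1.31 and is between 4.08 and 52.3 in the other 5 libraries, and *Rpe* is highest, at 106, in WT 1.22.

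After palmitate, the elongase and the desaturase went different ways. *Elovl6* (NCBI Gene 170439), which lengthens palmitate to stearate, was at 280 in WT and 230 in KO, a ratio of -0.28 with 86.1% of 3440 genes of like level above it. *Scd1* (NCBI Gene 20249), the desaturase that makes oleate from stearate, was at 17249 in WT and 20722 in KO, a ratio of 0.26 exceeded by 8.50% of 153 genes of like level. *Elovl6* spans chr3:129532355-129638495 on the plus strand with 5 exons, and *Scd1* spans chr19:44394455-44407879 on the minus strand with 6. *Scd1* has close paralogs, *Scd2*, *Scd3* and *Scd4*, and how the authors' counting split reads between them is not given in the sources used here. *Scd2* was at 26.5 in WT and *Scd4* at 0.673, far below *Scd1* on the scale of normalized reads, which does not take length into account.

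Levels can be compared between genes only per length. Per kilobase of the longest coding transcript, *Scd1* stood at 3570 normalized reads in WT and 4289 in KO, and was 12.1 times the next gene in WT, *Mlxipl*. In WT, *Mlxipl* (296), *Me1* (293), *Srebf1* (261), *Thrsp* (218), *Acacb* (211), *Acly* (179) and *Fasn* (150) followed within a narrow band. *Acaca* (62.5) and *Elovl6* (47.1) were lowest with this length, and the whole range was 75.8-fold. In KO the band held the same 7 genes in another order: *Srebf1* (347), *Me1* (346), *Thrsp* (297), *Fasn* (254), *Mlxipl* (249), *Acly* (230) and *Acacb* (209). *Fasn* moved from the 8th place to the 5th and *Mlxipl* from the 2nd to the 6th. Without a spread between pools, the neighbours in the band cannot be told apart, and only the first place of *Scd1* held under each of the 4 lengths tried. With the coding part alone as length, *Scd1* was 26.1 times the next gene, which was then *Thrsp*, *Elovl6* moved from the last place to the 5th, and *Acaca* was last. With the union of the annotated exons *Elovl6* was 9th and *Acaca* last.

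**Figure D4:**
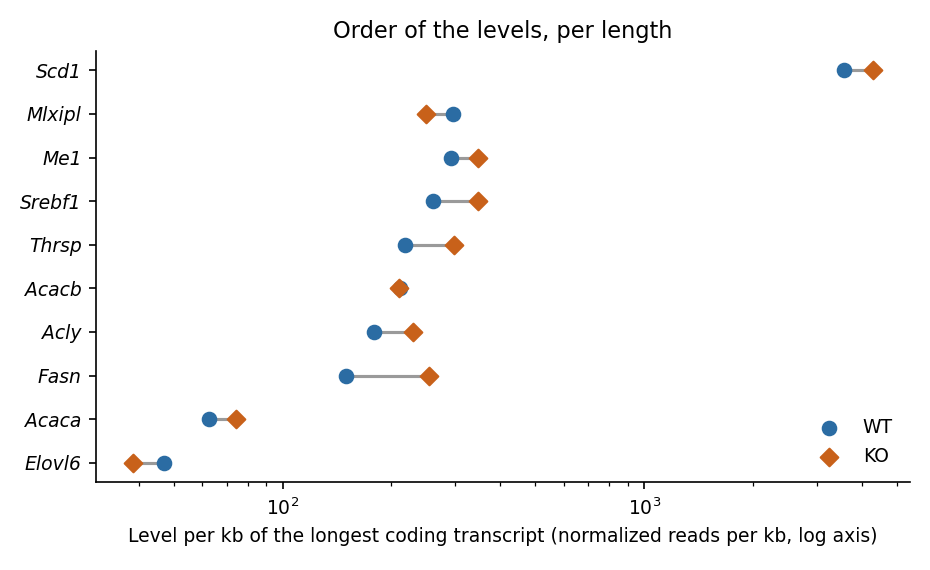
Level of each gene in normalized reads per kilobase of its longest coding transcript, on a log axis, in WT (circles) and KO (diamonds), ordered by WT, with no error bars for want of values per library. *Scd1* stands alone at 3570 and 4289, 7 genes lie between 150 and 347, and *Acaca* and *Elovl6* lie at 74.5 or less.

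Around these 10 genes, 9 lists of pathway genes, none of them holding a member, were looked at in the same way. Together they named 136 genes, 132 in the table and 126 with a mean of at least 10, of which 9 were past 0.5 and 4 past -0.5. These are 7.14% and 3.17%, beside 2.38% and 7.61% of all genes, and the median ratio was 0.03. The median of the 10 lipogenic genes was above that of each of the 9 lists, the next being 0.18 for the fasting programme.

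The control of SREBP-1 was represented by 18 genes, of which 1 was past 0.5 and 0 past -0.5 (median 0.03). *Insig1*, whose protein holds the SREBPs in the endoplasmic reticulum and which is itself an SREBP target, was at 287 in WT and 576 in KO, a ratio of 1.001. *Srebf2*, the paralog that drives cholesterol synthesis, was at 648 and 911 (0.49), and *Trib1* at 827 and 1159 (0.49). The escort *Scap* (0.06), the protease *Mbtps1* (0.22) and the LXR genes *Nr1h3* (-0.09) and *Nr1h2* (-0.34) lay closer to 0 or below it, and *Rnf139*, a ubiquitin ligase of the same membrane, had -0.27. *Insig2*, the form that is not an SREBP target, was at 1916 and 1612 (-0.25). The ratios of the paralogs *Insig1* and *Insig2* thus had opposite signs.

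Of 15 partners of ChREBP and sugar-responsive genes, 1 was past 0.5 and 0 past -0.5 (median 0.06). It was *Slc2a2*, the glucose transporter of hepatocytes, at 1685 in WT and 2483 in KO (0.56). *Mlx*, the DNA-binding partner, had a ratio of 0.17, and *Mlxip*, the paralog of *Mlxipl*, 0.15. That of *Pklr*, the liver pyruvate kinase and a classical ChREBP target, was 0.15. *G6pc* (0.45) and *Txnip* (0.36) had higher values in KO, and *Khk*, the fructose kinase, went from 7334 to 5560 (-0.40) and *Fgf21* from 577 to 449 (-0.36). The known ChREBP targets in this list thus had ratios of both signs.

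Of 15 further genes of acetyl-CoA and NADPH supply, 1 was past 0.5 and 1 past -0.5 (median 0.01). *Aacs*, which makes acetoacetyl-CoA for lipid synthesis from ketone bodies, was at 184 and 296 (0.69), and *Rpe*, an enzyme of the pentose phosphate pathway, at 61.8 and 35.1 (-0.80). The oxidative enzymes that make NADPH had ratios of -0.07 (*G6pdx*), -0.06 (*Pgd*) and 0.21 (*Idh1*), and the citrate carrier *Slc25a1* had -0.09. *Acat2*, the cytosolic acetyl-CoA acetyltransferase, was at 246 and 314 (0.35), and *Tkt*, transketolase, at 2806 and 2423 (-0.21). Among 12 paralogs and partners of the members, 11 were in the table and 9 had a mean of at least 10, with 2 past 0.5 and 0 past -0.5 (median 0.02). They were *Aacs*, counted in both lists, and *Mid1ip1*, the paralog of *Thrsp* whose protein promotes the activity of acetyl-CoA carboxylase, at 185 and 296 (0.68). *Mid1*, whose protein binds that of *Mid1ip1*, was at 74.9 and 103 (0.46). The lowest ratios of the list were those of *Acss3* (-0.23) and *Acsf3* (-0.20), 2 acyl-CoA synthetases of mitochondria.

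None of the other elongases and desaturases was past 0.5 in either direction among the 14 with a mean of at least 10 (median 0.11). The desaturases of polyunsaturated fatty acids, *Fads2* (14241 and 19914, 0.48) and *Fads1* (5195 and 6776, 0.38), had higher values in KO, as did *Scd2* (0.44), while *Fads3* had -0.46. *Elovl3* was lower, with 3079 and 2446 (-0.33), as *Elovl6* was, while *Elovl2* (0.21) and *Elovl5* (0.06) were above 0. In the esterification of the products, 2 of 11 genes were past 0.5 and 0 past -0.5 (median 0.07). *Lpin1*, a phosphatidate phosphatase, was at 786 and 1568 (0.996) and *Gpam*, the mitochondrial glycerol-3-phosphate acyltransferase, at 674 and 1023 (0.60). *Dgat2* (0.31), *Dgat1* (-0.10) and *Agpat2* (7958 and 6155, -0.37) lay on both sides of 0, and *Acsl3* had -0.23.

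The signals above the pathway were mixed as well. Of 19 genes of insulin and mTORC1 signalling, 2 were past 0.5, *Irs2* (226 and 381, 0.75) and *Igfbp1* (1905 and 2893, 0.60), and 3 past -0.5, among them *Rictor* (61.1 and 40.3, -0.59) and *Rheb* (209 and 144, -0.54). *Irs2* and *Igfbp1* are genes that insulin represses through FoxO1, and the lipogenic genes are ones it induces. Of 11 genes of AMPK and malonyl-CoA control none was past 0.5 in either direction (median -0.06), and *Cpt1a*, the carnitine transferase that malonyl-CoA inhibits, was at 17124 and 18905 (0.14). The AMPK subunits *Prkag2* (0.23) and *Prkaa2* (-0.23) had ratios of opposite sign, and *Brca1*, whose protein binds phosphorylated acetyl-CoA carboxylase, had the lowest (-0.36). Of 15 genes of the fasting programme 1 was past 0.5, *Cyp4a14* (72416 and 103093, 0.51), and 0 past -0.5 (median 0.18). *Ppara*, the receptor that switches on fat oxidation in a fast, was at 3501 and 4872 (0.48), and *Ppargc1a* at 103 and 76.2 (-0.43). *Angptl4* was at 5942 and 5041 (-0.24).

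Of 35 genes annotated to fatty acid biosynthesis, 4 of them members, 30 had a mean of at least 10, and *Fasn* was the 1 past 0.5. Without the 4 members the median of the remaining 26 was -0.12, below that of all genes (-0.05). The higher values of the 7 members were thus not seen across the annotated process. Among markers of position in the lobule, the median ratio of 7 pericentral genes was 0.28 and that of 6 periportal genes -0.06, with none past 0.5 in either direction, and the part of position in the members' values was not tested. Of the markers of other cells, 4 of 6 red cell genes were past 0.5 (summed values 118830 in WT and 180430 in KO), 1 of 7 Kupffer cell genes, 2 of 6 stellate cell genes, with 1 more past -0.5, and 0 of 6 endothelial genes in either direction, and their part was not tested either. Of all genes with a mean of at least 10, 2.38% were past 0.5 and 7.61% past -0.5.

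**Figure D5:**
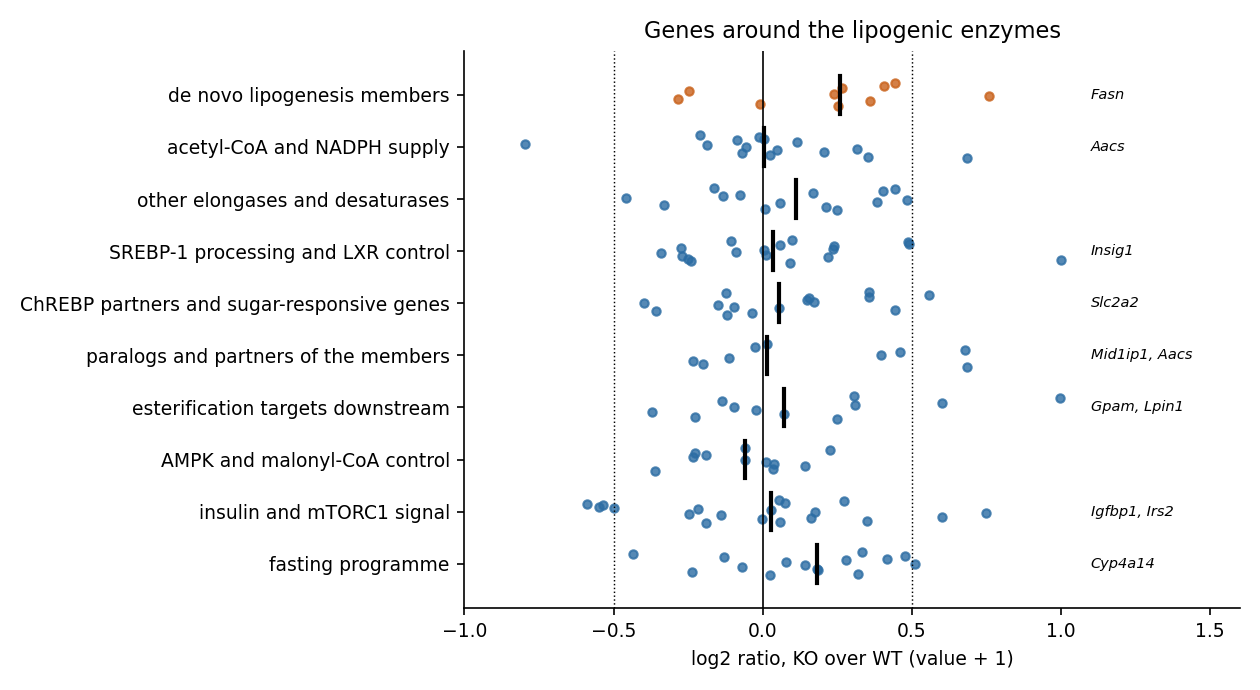
Log2 ratio of KO over WT for each gene with a mean of at least 10 in the member list and the 9 lists around it; each point is 1 gene, the bar is the median of the list, and the dotted lines mark -0.5 and 0.5, with the genes past 0.5 named at the right in order of their ratio. The member list has its median at 0.26 and the others lie between -0.06 and 0.18, and the ratios of *Insig1* (1.001) and *Lpin1* (0.996) are the highest.

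For weak genes of these lists the reads of each library give the spread that the members lack. In 13 of them, with at least 60 normalized reads over the 6 libraries, the genotypes were compared by a two-sided exact permutation test, whose smallest p with 3 libraries against 3 is 0.1. The genotypes did not overlap in 1 gene, *Fads3*, a desaturase of sphingoid bases, with 21.3, 18.3 and 21.5 normalized reads in KO 1.31, 1.04 and 0.886 against 28.6, 21.6 and 42.8 in WT 1.22, 0.879 and 0.818. Its means were 20.4 ± 1.76 in KO and 31.0 ± 10.8 in WT (SD, n = 3 libraries each; exact permutation test, p = 0.1), and the nearest libraries, 21.5 and 21.6, nearly met. The difference of -10.6 became -4.72 without library WT 0.818. All KO libraries lay below all WT libraries in 2.52% of the 3535 genes tested so, and above them in 3.00%. After Benjamini-Hochberg adjustment over the 3535 genes every p was 1.

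*Scd2*, the paralog of *Scd1*, had 40, 46 and 34 reads in KO 1.31, 1.04 and 0.886 and 41, 11 and 24 in WT 1.22, 0.879 and 0.818. The normalized means were 37.8 ± 6.99 and 25.1 ± 11.1 (SD, n = 3 libraries each; exact permutation test, p = 0.2), and the ranges overlapped. The difference of 12.6 became 6.35 without library WT 0.879. *Me2*, the mitochondrial paralog of *Me1*, had 37, 15 and 29 reads in KO and 20, 16 and 14 in WT in the same order, with 25.1 ± 9.51 and 17.2 ± 0.938 normalized reads (SD, n = 3 libraries each; exact permutation test, p = 0.4). One KO library was below all of WT and the other two were above, and the difference of 7.92 became 4.12 without KO 0.886 and 13.3 without KO 1.04. *Pnpla3*, a lipid-droplet protein gene that SREBP-1c and ChREBP induce on refeeding, had 2, 4 and 1 reads in KO and 3, 0 and 1 in WT, too few to compare.

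The weak genes with the lowest deposited ratios varied widely between libraries. *Rpe*, at -0.80 in the deposited values, had 63, 31 and 15 reads in KO and 130, 51 and 26 in WT, and its normalized means of 31.6 ± 15.6 and 65.3 ± 37.7 (SD, n = 3 libraries each) overlapped (exact permutation test, p = 0.2). Its difference of -33.7 normalized reads became -13.3 without library WT 1.22. *Rictor*, at -0.59, had 95, 21 and 11 reads in KO and 184, 13 and 28 in WT (exact permutation test, p = 0.6). Its mean difference of -31.4 normalized reads became 10.5 without library WT 1.22. Over 1352 genes with 200 to 400 normalized reads in all, the SD between libraries of a genotype was a median 0.528 on the log2 scale (quartiles 0.366 and 0.78), and the standard error of a difference between genotypes 0.431. That error comes from reads and the members' ratios are on the shrunken scale of the table, so they cannot be set against each other directly. The genes with recovered reads are weaker than all 10 members, and the spread of the members themselves is not known.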

How the data were processed

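Liver RNA of 3 WT and 3 KO pools was sequenced by a commercial service. For each of 16123 genes the authors deposited 1 signal per genotype, namely reads scaled by the size factors of DESeq2, together with their log2 ratio, p-value and adjusted p-value, none of which was used here because they are the study's own findings. The midpoint of the WT and KO values equals the mean of the normalized reads over the 6 libraries. Per library, the authors deposited the counts of clean reads and the percent of reads mapped and of ribosomal RNA (0.26% to 0.69%). The submitters' processing notes list HISAT2, StringTie, Cufflinks, GATK, Bowtie2 and RSEM and the build mm10, without their roles or versions. How reads shared by paralogs were counted, and whether strand was used, is not given in the sources used here.

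Samples were grouped by genotype from their titles. The planned count model could not be run on 1 value per genotype, so log2 ratios of KO over WT were taken with a pseudocount of 1 for genes with a mean of at least 10, a ratio past 0.5 or -0.5 was counted, and each member was placed among the genes within 2-fold of its mean. The genes named are the 10 members, *Txndc5*, the 2 highest and 2 lowest ratios of each list, *Mid1ip1*, *Scd2*, *Elovl5*, *Srebf2*, *Mlx* and *Mlxip*, recovered genes without overlap and markers by list. Further list genes were named for their role after their values were seen, and 1 gene that the rule names is not reported here. The members and lists were chosen with earlier results of these data known.

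For genes with up to 600 normalized reads in all, the whole reads of the libraries were solved from the deposited mean. A value found in 20 or more genes gave the weight of a single read, and solutions within 2.5 times the rounding error were accepted. This gave reads for 7997 of 8081 genes up to a sum of 400 (99%) and for 291 of the 979 between 400 and 600 (29.7%), and the direction was that of the deposited values in all 1118 resolved genes past 0.5 or -0.5. Between 96056 and 232383 reads per library were recovered, a small part of each library. Genes with a sum of at least 60 were compared by two-sided exact permutation tests of normalized means. The recovery was tested on simulated data. The libraries are pools, so p-values measure the spread between pools of mice.

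Positions, transcript lengths and exons came from GENCODE M21 on GRCm38, and promoter windows from RefSeq on GRCm38.p6. Python 3.11.15, numpy 2.4.6, pandas 2.3.3, numba 0.67.0 and matplotlib 3.10.9 were used. Alternatives were other pseudocounts, centring, scaling to equal sums, other minima and limits, other lengths and leaving out each recovered library.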

Additional observations from a re-analysis of the deposited data

How the results depend on the processing

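The ratios of 9 members kept their sign after centring and with equal sums. That of *Acacb* (-0.01) became 0.04 after centring and 0.08 with equal sums. The other pseudocounts (0.1 and 10) and minimum means cannot turn the sign of a ratio, so they do not test it. The number of members past 0.5 was 1, and became 3 with values scaled to equal sums and 4 with a limit of 0.3. In the same order, 2.38%, 4.35% and 9.08% of all genes were above the limit. Over the 9 lists together, 9 genes past 0.5 became 14 after centring on the median, 17 with equal sums and 29 with a limit of 0.3, and 4 genes past -0.5 became 1 with equal sums, 2 with a minimum mean of 100 and 13 with a limit of 0.3. After centring, 3.19% of all genes were above 0.5. The share of all genes below the limit went from 7.61% to 5.21% with equal sums, 3.98% with a minimum mean of 100 and 17.7% with a limit of 0.3. *Scd1* over the next member in WT, 12.1 per length, became 26.1 with the coding length, and a length table added after seeing the data gave 12.0.

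Without each recovered library in turn, between 1 and 4 of the 13 weak pathway genes had genotypes that did not overlap, against 1 with all libraries. The share over all 3535 genes was then 10% to 19.8%, against 5.52% with all libraries. The difference in mean normalized reads, KO minus WT, turned sign in 6 of these genes. With 1 library left out it ran from -31.1 to 14.7 for *Acss3*, -13.7 to 0.442 for *Fbxw7*, -17.6 to 10.5 for *Mbtps2*, -8.76 to 10.3 for *Prkaa1*, -57.2 to 10.5 for *Rictor* and -0.202 to 6.34 for *Rpia*. It was above 0 without WT 1.22 for the first 5 of these, also without KO 1.04 for *Prkaa1* (1.89), and below 0 without WT 0.818 for *Rpia*. The cause was not tested. No paired analysis was possible because the labels name no pairing of WT and KO pools, the gene table has 1 value per genotype and the recovered libraries carry no pool number. Depth limits the weakest genes, such as *Pnpla3*, to a few reads per library, and intervals between pools cannot be given for the members.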
